A study of Mus musculus with 18 samples.

Results

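Integrins are the receptors with which cells hold on to the extracellular matrix, and the 10 genes *Itga3*, *Itga4*, *Itga5*, *Itga6*, *Itga7*, *Itga11*, *Itgav*, *Itgb1*, *Itgb3* and *Itgb5* encode 7 alpha and 3 beta subunits of them. Their rows were found by gene symbol, 1 Ensembl gene each, among the 19153 genes that were listed for every library, and all 10 were among the 17672 genes tested. The rule used their names and no measured value, but the members were chosen with earlier results of these data known.

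RNA was sequenced from immortalized mouse myoblasts in 6 groups of 3 libraries. Wildtype (WT) and LAP2α knockout (KO) myoblasts were harvested while proliferating below confluence in 20% serum (Prol), on reaching confluence in the same medium (D0), or after a further 48 h in 5% serum (D2). All 6 groups came from a p53 knockout mouse line and grew on plates coated with collagen I, a ligand of some integrins. The knockout was made with Cas9 and an sgRNA against LAP2α, an isoform encoded by *Tmpo*, and the KO cells were sorted in bulk and are not 1 clone, while the WT controls had received the Cas9 vector without sgRNA. Nothing in the labels says that the 3 libraries of a group came from separate cultures, so the p-values measure only the spread between these libraries, which may be technical.

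Each integrin is a pair of an alpha and a beta subunit, and the pair decides which matrix protein is bound. The beta subunit encoded by *Itgb1* pairs with every alpha subunit listed here, and αv also pairs with the subunits encoded by *Itgb3* and *Itgb5*. In skeletal muscle, α7β1 is known as the laminin receptor of differentiated fibres and of their junctions with tendon, and myoblasts also use receptors for fibronectin, collagens and vitronectin while they divide, align and fuse.

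Levels are given in CPM, expected counts divided by the scaled total of the library. The libraries held 26437823 to 41619016 expected counts, and 3 counts, taken as the detection limit, were worth 0.0651 to 0.119 CPM. The limit covers counting error only. No integrin subunit was near it: the lowest count behind any of their values was 38.5, for *Itga4*, and the highest was 62094, for *Itgb1*. As checks of the labels, all 20 genes on a list of muscle differentiation genes rose from Prol to D2 in both genotypes, among them *Myog*, which went from 0.388 to 1.30 CPM in WT Prol to 260.8 to 532.4 CPM in WT D2, and all 15 proliferation genes fell. The myoblast genes *Myod1*, *Myf5*, *Des*, *Cdh15*, *Ncam1* and *Met* summed to 161.5 CPM or more in every library. *Tmpo*, counted over all its isoforms, was at 228.0 to 260.4 CPM in KO Prol and 274.7 to 314.6 CPM in WT Prol, and at 94.5 to 157.2 CPM in KO D2 and 106.0 to 157.4 CPM in WT D2, where the genotypes overlapped. The knockout of 1 isoform cannot be read from this sum. Replicate 1 of each group read long transcripts higher than replicate 2 did. Most integrin subunits were also higher in replicate 1 than in replicate 2, as described below.

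Upstream sequences were looked up for all 10 genes in RefSeq on GRCm38.p6, and 7 of them had an entry. They are shown for the subunits that changed most between states and had an entry, *Itga3*, *Itga4* and *Itga11*, because E-boxes, with the letters CANNTG, are the sites to which MyoD and myogenin bind. The letters shown lie before the annotated 5′ end of the gene, and the capitals mark the E-box.
*Itga3*, chr11:95076802-95076964, minus strand: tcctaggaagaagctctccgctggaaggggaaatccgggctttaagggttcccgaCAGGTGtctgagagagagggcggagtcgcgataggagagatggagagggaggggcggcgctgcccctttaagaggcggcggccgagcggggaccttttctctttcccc
*Itga4*, chr2:79255176-79255425, plus strand: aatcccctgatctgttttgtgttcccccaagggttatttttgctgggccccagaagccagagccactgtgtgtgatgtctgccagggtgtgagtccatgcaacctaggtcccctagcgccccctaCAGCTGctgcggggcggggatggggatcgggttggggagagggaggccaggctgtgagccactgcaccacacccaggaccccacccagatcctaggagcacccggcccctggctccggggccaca
*Itga11*, chr9:62677605-62677825, plus strand: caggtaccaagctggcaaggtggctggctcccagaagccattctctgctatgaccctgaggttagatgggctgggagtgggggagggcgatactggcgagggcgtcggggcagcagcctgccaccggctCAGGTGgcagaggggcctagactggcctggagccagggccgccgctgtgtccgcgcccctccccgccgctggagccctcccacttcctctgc
In the 250 bases before the RefSeq start, each of the 3 genes held 1 CANNTG on either strand, counting both windows of *Itga3* separately, and the one of *Itga4* was CAGCTG, the form preferred by the myogenic factors. A CANNTG was present in 66.2% of the 32851 mouse promoter windows of this length and a CAGCTG, which is also counted as a CANNTG, in 13.0%. *Itgb5* held 3 CANNTG including 1 CAGCTG, *Itga5* held 1 CANNTG, and *Itgav* and *Itgb1* held none. No MEF2 site or CArG box, present in 2.92% and 1.47% of all windows, was found in the windows of the integrin genes. These are matches of letters only.

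From Prol to D2, in the fit without a block by replicate number, changes were called in 3 to 4 alpha subunits and in no beta subunit. *Itga7* and *Itga4* rose and *Itga3* fell in both genotypes, and *Itga11* passed the threshold in KO only. A gene was called at an adjusted p-value under 0.05 in limma with Benjamini-Hochberg adjustment over all 17672 genes. In WT, 2 of the 10 subunits were called higher and 1 lower, against 16.6% and 14.1% of all genes, and in KO, 3 were called higher and 1 lower, against 17.1% and 15.2%. The median log2 fold change of the 10 was 0.63 in WT and 0.38 in KO, beside -0.01 and 0.02 over all genes tested. The counts of called subunits are thus close to these background shares. With the replicate number held as a block in the fit, *Itgb5* was also called in both genotypes, and *Itga11* and *Itgb3* in WT. The block called 47.7% of all genes in WT and 48.6% in KO. In bulk RNA, fewer cells of a type and less RNA per cell cannot be told apart.

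**Figure D1:**
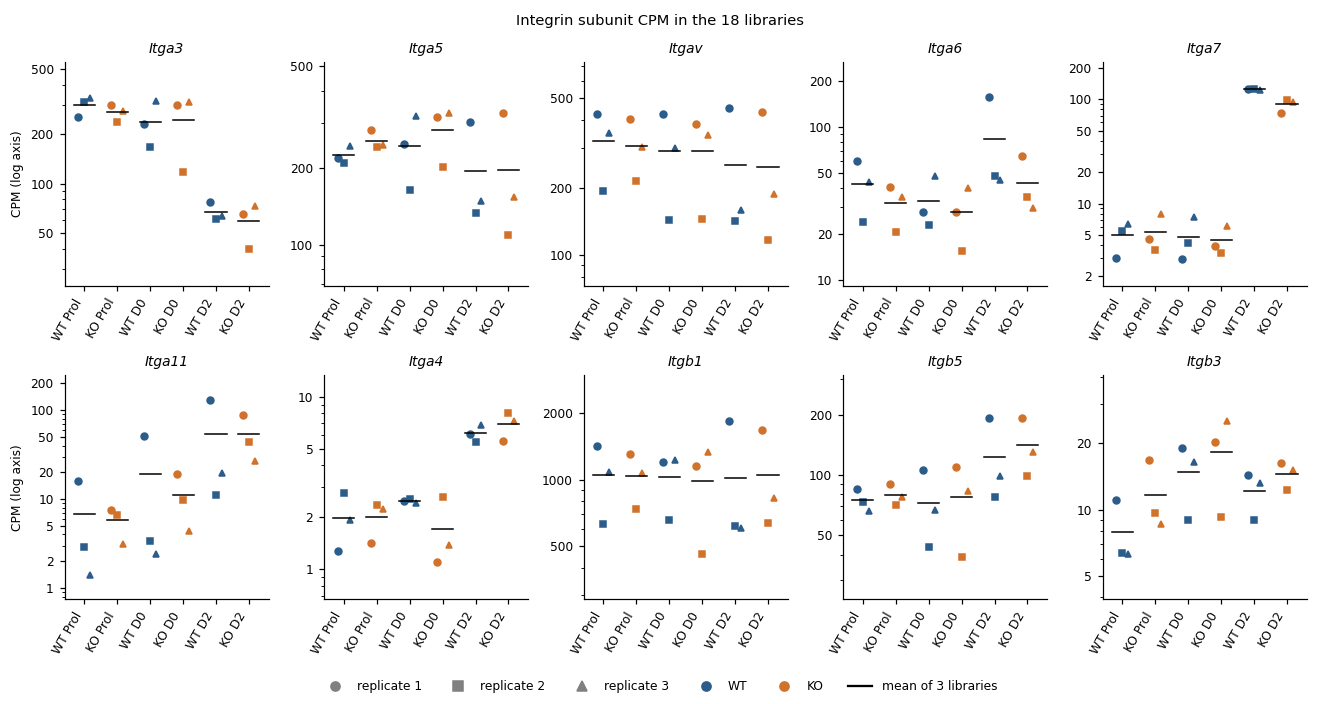
CPM of each of the 10 integrin subunits (log axis, a scale per panel) in the 18 libraries, by group on the horizontal axis. Points are single libraries, with their shape giving the replicate number and their colour the genotype, and the black lines are means of 3 libraries. *Itga7* lay between 2.94 and 7.91 CPM in all Prol and D0 libraries and between 74.2 and 126.2 CPM in the D2 libraries, while the *Itgb1* libraries of all 6 groups overlapped.

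The largest change was that of a laminin receptor subunit. *Itga7* (ENSMUSG00000025348, chromosome 10, 128933818 to 128958282, plus strand), which encodes the α7 subunit, was at 3.01, 5.47 and 6.43 CPM in replicates 1 to 3 of WT Prol and at 126.2, 124.6 and 122.7 CPM in WT D2. In KO it was at 4.58, 3.60 and 7.91 CPM in Prol and at 74.2, 99.3 and 94.3 CPM in D2. Every D2 library was above every Prol library in both genotypes, as for 23.0% of all genes in WT and 25.1% in KO. The rise was 26.3-fold in WT (95% confidence interval 15.4 to 44.9, adjusted p = 3.50e-07 from limma) and 17.5-fold in KO (10.2 to 29.8, adjusted p = 1.12e-06), which are log2 fold changes of 4.72 and 4.13 with a standard error of 0.36. The WT D2 libraries of *Itga7* were within 1.73 CPM (SD) of their mean of 124.5 CPM, whereas the summed level of the 20 muscle differentiation genes in the same libraries went from 4740 to 9161 CPM.

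*Itga3* (ENSMUSG00000001507, chromosome 11, 95044474 to 95076801, minus strand), the α3 subunit of another laminin receptor, went the other way. It was at 253.0, 315.7 and 329.6 CPM in WT Prol and at 77.0, 61.1 and 63.1 CPM in WT D2. In KO the libraries were at 300.6, 237.9 and 276.7 CPM in Prol and at 65.1, 39.7 and 73.4 CPM in D2. The groups did not overlap, which held for 20.5% of all genes in this direction in WT and 22.6% in KO. The level was 4.46-fold lower in WT (2.71 to 7.34, adjusted p = 0.000163 from limma) and 4.71-fold lower in KO (2.86 to 7.75, adjusted p = 0.00012).

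*Itga6* (ENSMUSG00000027111, chromosome 2, 71745616 to 71858416, plus strand) encodes α6, the alpha subunit of another laminin receptor, and was not called. Its WT libraries were at 60.1, 24.1 and 44.1 CPM in Prol and at 157.8, 48.3 and 45.1 CPM in D2. In KO they were at 40.5, 20.7 and 34.9 CPM and at 64.7, 34.8 and 29.8 CPM. The Prol and D2 groups overlapped in both genotypes, and in WT D2 replicate 1 was more than 3 times as high as the other replicates. The log2 fold change was 0.81 in WT (standard error 0.51, adjusted p = 0.254 from limma) and 0.40 in KO (adjusted p = 0.601).

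Among the subunits of fibronectin receptors, the scarce *Itga4* rose and the abundant *Itga5* and *Itgav* were not called. *Itga4* (ENSMUSG00000027009, chromosome 2, 79255426 to 79333123, plus strand) encodes α4, which with β1 binds fibronectin and VCAM-1, and its upstream sequence with a CAGCTG is shown above. It was at 1.27, 2.76 and 1.94 CPM in WT Prol and at 6.10, 5.49 and 6.85 CPM in WT D2, and in KO at 1.43, 2.36 and 2.25 CPM and then 5.55, 8.02 and 7.25 CPM. The D2 libraries were all higher, in both genotypes. The rise was 3.24-fold in WT (1.95 to 5.36, adjusted p = 0.0014 from limma) and 3.49-fold in KO (2.11 to 5.78, adjusted p = 0.000807).

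*Itga5* (ENSMUSG00000000555, chromosome 15, 103344286 to 103366763, minus strand), the α5 subunit of the main fibronectin receptor, was at 218.4, 209.6 and 244.4 CPM in WT Prol and at 302.7, 133.1 and 148.6 CPM in WT D2. In KO it was at 280.7, 241.1 and 245.5 CPM in Prol and at 328.4, 109.2 and 153.2 CPM in D2. Replicate 1 was higher at D2 than at Prol and replicates 2 and 3 were lower, in both genotypes. The log2 fold changes were -0.30 in WT (adjusted p = 0.601 from limma) and -0.53 in KO (adjusted p = 0.315), and without replicate 1 of KO D2 the KO change was called, with -0.98 and an adjusted p of 0.0423.

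*Itgav* (ENSMUSG00000027087, chromosome 2, 83724397 to 83806916, plus strand) encodes αv, which binds vitronectin and fibronectin. Its libraries were at 424.1, 192.1 and 349.1 CPM in WT Prol, 453.5, 141.6 and 158.5 CPM in WT D2, 402.8, 214.5 and 304.3 CPM in KO Prol and 434.7, 116.7 and 187.8 CPM in KO D2. Again replicate 1 was highest in every group and rose while the others fell. The log2 fold change was -0.49 in both genotypes, with 95% confidence intervals from -1.69 to 0.71.

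*Itga11* (ENSMUSG00000032243, chromosome 9, 62677826 to 62783982, plus strand) encodes α11, a receptor of fibrillar collagens found on mesenchymal cells. It was the most variable of the 10. Its WT libraries were at 15.9, 2.87 and 1.40 CPM in Prol and at 130.6, 11.0 and 19.4 CPM in D2. Its KO libraries were at 7.46, 6.70 and 3.15 CPM in Prol and at 89.2, 43.8 and 26.9 CPM in D2. Within each number the D2 library was the higher, but in WT replicate 1 of Prol lay above replicate 2 of D2. The fold was 7.56 in WT (1.43 to 39.9, adjusted p = 0.062 from limma) and 8.74 in KO (1.66 to 46.2, adjusted p = 0.0445). The KO call was close to the threshold. Leaving out any of the 3 libraries of KO Prol (adjusted p = 0.0715 to 0.143) or of KO D2 (0.0542 to 0.127), or, through the shared spread, replicate 2 of WT Prol (0.0532), replicate 2 of KO D0 (0.0526) or replicate 3 of WT D2 (0.0528), ended it. The WT change was called without replicate 1 of WT Prol (adjusted p = 0.0234), replicate 1 of WT D0 (0.0243) or replicate 2 of WT D2 (0.0407). With the replicate number held as a block in the fit, both changes were called, with an adjusted p of 0.000649 in WT and 0.000342 in KO from limma. In that fit 24.4% of all genes were called higher in WT and 24.6% in KO. In WT the numbers did not pair all libraries, as described below.

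Like *Itga11*, most markers of fibroblasts were higher at D2. Of 11 listed, 10 had a row and were tested, and 8 were called higher at D2 in each genotype, beside 16.6% of all genes in WT and 17.1% in KO. Their summed level was 302.8, 164.6 and 160.1 CPM in WT Prol and 1284, 671.8 and 792.2 CPM in WT D2, and 423.6, 281.0 and 155.8 CPM and then 2268, 998.5 and 795.3 CPM in KO. In all groups but WT D0 the libraries stood in the same order for the fibroblast sum and for *Itga11*. In WT D0 the sum was 584.7, 138.8 and 193.1 CPM, and *Itga11* was at 51.5, 3.41 and 2.44 CPM. The order in WT D2 was also that of *Itga5*, *Itgav*, *Itgb3* and *Itgb5*. *Lum* was at 2 counts or fewer in every Prol and D0 library, and *Tcf21* was not analysed here. The part of these markers in the result was not tested. Endothelial markers summed to 1.57 to 4.26 CPM over all libraries, haematopoietic ones to 5.92 to 11.7 CPM and neural and glial ones to 0.978 to 4.84 CPM, and *Pax7*, *Cdh5*, *Ptprc* and *Sox10* were not analysed here.

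Without the replicate block, the beta subunits were not called between Prol and D2 in either genotype. *Itgb1* (ENSMUSG00000025809, chromosome 8, 128685654 to 128733200, plus strand), the shared partner of the alpha subunits, was at 1424, 634.4 and 1086 CPM in WT Prol and at 1848, 616.0 and 607.4 CPM in WT D2. In KO it was at 1308, 736.0 and 1079 CPM in Prol and at 1682, 637.4 and 827.8 CPM in D2. The group means lay between 984.7 and 1049 CPM in all 6 groups while single libraries of a group differed by up to 3.04 times. The log2 fold change was -0.17 in WT (-1.27 to 0.93) and -0.08 in KO (-1.18 to 1.03), and the interval in KO spans 0.442 to 2.04 times the Prol level. Its sign turned when replicate 1 of Prol, or replicate 2 or 3 of D2, was left out in either genotype (0.09 to 0.10 in WT and 0.03 to 0.22 in KO).

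*Itgb5* (ENSMUSG00000022817, chromosome 16, 33829665 to 33949338, plus strand), which with αv binds vitronectin, was at 85.0, 73.3 and 66.4 CPM in WT Prol and at 191.4, 77.9 and 98.6 CPM in WT D2. In KO it was at 89.8, 70.6 and 77.9 CPM in Prol and at 193.0, 98.6 and 130.5 CPM in D2. The D2 library was higher in all 3 pairs of each genotype, and in KO the groups did not overlap. The fold was 1.53 in WT (0.845 to 2.76, adjusted p = 0.282 from limma) and 1.71 in KO (0.949 to 3.09, adjusted p = 0.159). When the fit held the replicate number as a block, the KO change was called (adjusted p = 0.00759). KO libraries of the same number deviated together from their group means.

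*Itgb3* (ENSMUSG00000020689, chromosome 11, 104608000 to 104670476, plus strand), the other partner of αv, was at 11.0, 6.37 and 6.30 CPM in WT Prol, 14.4, 9.01 and 13.2 CPM in WT D2, 16.7, 9.65 and 8.64 CPM in KO Prol and 16.2, 12.3 and 15.1 CPM in KO D2. The groups overlapped. The log2 fold change was 0.65 in WT (standard error 0.39, adjusted p = 0.226 from limma) and 0.37 in KO (adjusted p = 0.517).

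**Figure D2:**
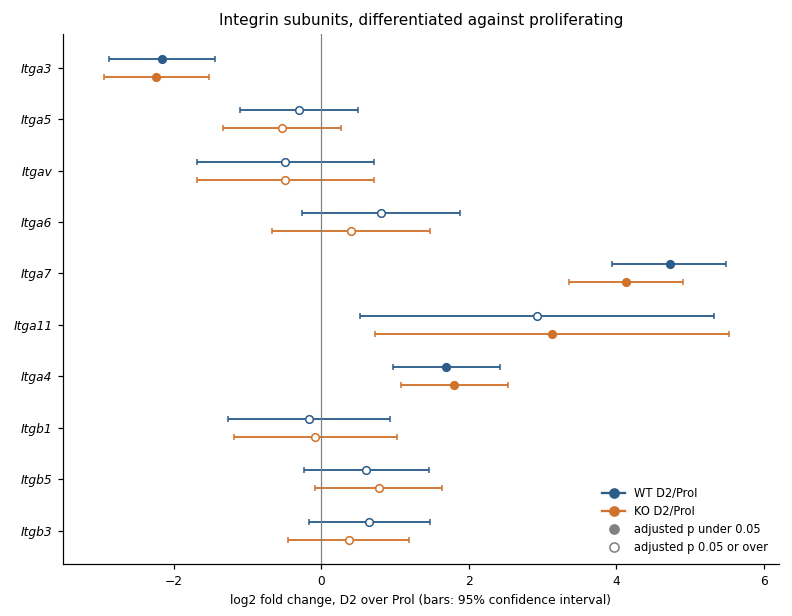
Log2 fold change from Prol to D2 of the 10 integrin subunits in WT (blue) and KO (orange), with bars for the 95% confidence interval of the limma fit and filled points for an adjusted p-value under 0.05. *Itga3* lies at -2.16 and -2.24, *Itga7* at 4.72 and 4.13, and the intervals of WT and KO overlap for every subunit.

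D2 was also compared with D0, and D0 with Prol. These comparisons share libraries with the one above and are not independent of it. D2 differed from D0 in serum and in 48 h of further culture. No group stayed in 20% serum for those 48 h, so their effects cannot be told apart. At D0 the levels of *Itga7* and *Itga3* overlapped with those of Prol. *Itga7* was at 2.94, 4.18 and 7.37 CPM in WT D0 and at 3.95, 3.39 and 6.15 CPM in KO D0, and *Itga3* was at 230.5, 166.6 and 318.0 CPM and at 301.4, 117.3 and 313.5 CPM. None of the 10 subunits was called between D0 and Prol in either genotype, where 0.00566% of all genes were called in WT and 0.0% in KO. At an unadjusted p under 0.05, 1 subunit passed in WT and 0 in KO, against 2.17% and 1.12% of all genes. That 1 was *Itgb3*, at 19.0, 8.98 and 16.4 CPM in WT D0, above the Prol library of the same number in all 3 pairs, with a log2 fold change of 0.89 (0.07 to 1.71, unadjusted p = 0.035, adjusted p = 1 from limma). With the replicate block, 1 of 10 passed the unadjusted threshold in each genotype, again *Itgb3*, beside 6.7% of all genes in WT and 3.29% in KO. Its unadjusted values were 0.00256 in WT and 0.0319 in KO from limma, with adjusted values of 0.66 and 0.98. Without the block, the log2 fold changes of the 10 ranged over -0.37 to 0.91 in WT, with 95% confidence intervals reaching from -1.49 to 3.32. In KO they ranged over -0.30 to 0.80, with intervals from -1.61 to 3.20.

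From D0 to D2, *Itga7* and *Itga4* rose and *Itga3* fell in both genotypes. The call rates of all genes were 14.7% higher and 11.3% lower in WT, and 15.3% and 12.9% in KO. *Itga7* rose 27.7-fold in WT (16.2 to 47.4, adjusted p = 4.25e-07 from limma) and 20.4-fold in KO (11.9 to 34.8). *Itga4*, which was at 2.49, 2.57 and 2.43 CPM in WT D0 and at 1.11, 2.63 and 1.38 CPM in KO D0, rose 2.45-fold in WT (1.48 to 4.06, adjusted p = 0.0107) and 4.31-fold in KO (2.60 to 7.13, adjusted p = 0.000268). *Itga3* had log2 fold changes of -1.79 in WT (adjusted p = 0.00102) and -1.96 in KO (adjusted p = 0.00046). *Itga6* was at 27.8, 23.0 and 47.7 CPM in WT D0 and had a log2 fold change of 1.17 (adjusted p = 0.104). *Itga11* was at 51.5, 3.41 and 2.44 CPM in WT D0 and at 19.3, 9.71 and 4.38 CPM in KO D0, and had log2 fold changes of 2.00 (adjusted p = 0.219) and 2.33 (adjusted p = 0.14). Without replicate 1 of WT D0, the change of *Itga11* in WT was 3.39 on the log2 scale and was called (adjusted p = 0.0226). In KO the block by replicate number raised the called subunits from 3 to 5, adding *Itga11* (adjusted p = 0.00374) and *Itgb5* (log2 fold change 0.93, adjusted p = 0.00245), while the share of all genes called went from 28.3% to 46.0%. *Itgb5* in KO was also called without replicate 1 of KO D0, with 1.25 on the log2 scale and an adjusted p of 0.0415.

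The question of the study, whether the loss of LAP2α alters muscle gene expression, was put to the integrin subunits in each state. None of the 10 was called between KO and WT in Prol, D0 or D2 (adjusted p = 1 from limma for all), where 0.00566%, 0.0% and 0.0% of all genes were called, and at an unadjusted p under 0.05 the count was also 0 of 10, beside 1.11%, 1.47% and 1.96% of all genes. With the replicate block, 1 of 10 passed the unadjusted threshold in each state, beside 2.07%, 2.86% and 5.23% of all genes. They were *Itgb3* in Prol, *Itga4* in D0 and *Itga6* in D2, with unadjusted values of 0.0397, 0.0272 and 0.0425 from limma and adjusted values of 1, 1 and 0.939. None of these p-values shows that the genotypes were alike. The study used another rule, with thresholds on p-value, fold change and expression and a block by lane. It reported genes that differed between KO and WT in Prol and at D2. With a pseudocount of 1 CPM, the limma fit called 3 genes higher and 28 lower at D2.

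At D2, *Itga7* was the one subunit whose libraries did not overlap between the genotypes, with KO at 74.2 to 99.3 CPM and WT at 122.7 to 126.2 CPM. In this direction 3.81% of all genes did not overlap. The KO level was 0.712 of the WT level (0.416 to 1.22, unadjusted p = 0.197 from limma), and KO was the lower in all 3 pairs. With the replicate block the unadjusted p was 0.0749 and the adjusted p 0.954 from limma. The summed level of the muscle differentiation genes at D2 was 2842 to 3882 CPM in KO and 4740 to 9161 CPM in WT. *Itga6* was also lower in KO in all 3 pairs, at 64.7, 34.8 and 29.8 CPM against 157.8, 48.3 and 45.1 CPM, with a log2 fold change of -0.79 (-1.86 to 0.29, unadjusted p = 0.14, adjusted p = 1, and 0.939 with the replicate block). *Itga11* had a log2 fold change of 0.64 with an interval from -1.76 to 3.04, and of -0.09 without replicate 2 of WT D2. The 7 other subunits lay between -0.22 and 0.27, with intervals from -1.23 to 1.22.

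In Prol and D0 the KO and WT libraries of all 10 subunits overlapped. The log2 fold changes of KO over WT went from -0.38 to 0.55 in Prol, the highest for *Itgb3* (-0.26 to 1.37), whose KO library was the higher in all 3 pairs. In D0 they went from -0.65 to 0.31, the lowest for *Itga4* (-1.38 to 0.08). Whether the KO effect differed between states was tested directly. For *Itga7* the difference between D2 and Prol was -0.59 on the log2 scale (-1.68 to 0.50), so that the rise to D2 was not shown to be smaller in KO. For *Itga4* the difference between D2 and D0 was 0.81 (-0.22 to 1.84). None of the 10 subunits, and 0.0% of all genes, was called in either test (adjusted p = 1 from limma), and 0 of the 10 subunits passed at an unadjusted p under 0.05, beside 0.945% and 1.78% of all genes. With the block, *Itga4* passed the unadjusted threshold for D2 and D0, with 0.0468 from limma and an adjusted value of 1, beside 3.71% of all genes.

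**Figure D3:**
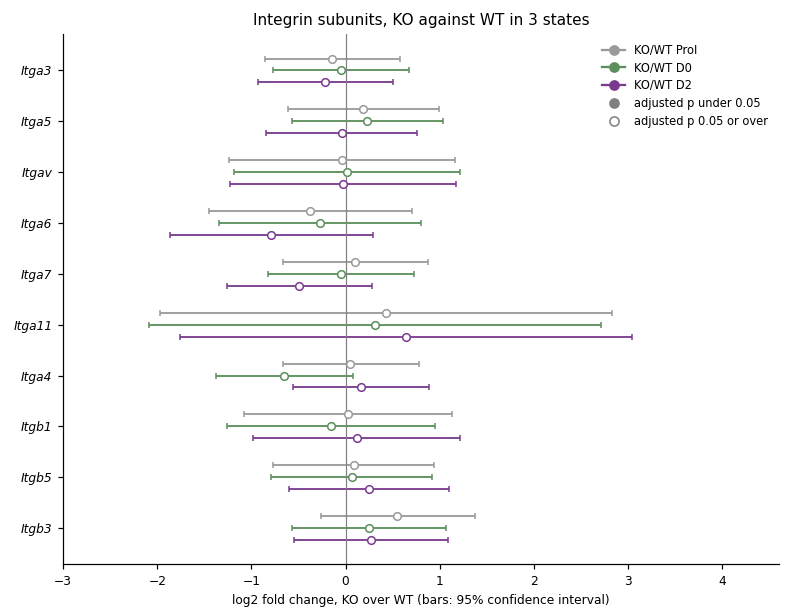
Log2 fold change of KO over WT for the 10 integrin subunits in Prol (grey), D0 (green) and D2 (purple), with bars for the 95% confidence interval of the limma fit. All points are open, since no adjusted p-value was under 0.05, and every interval includes 0, with that of *Itga11* at D2 from -1.76 to 3.04.

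Levels of different subunits were compared as CPM per kilobase of the exons of their protein-coding transcripts. *Itgb1* ranked highest in every group, with a mean of 269.0 CPM per kb in WT Prol, and its lowest library was above the highest of the next subunit. *Itga3*, *Itga5* and *Itgav* followed in WT Prol at 57.0, 51.1 and 45.6 CPM per kb, and their ranges over 3 libraries overlapped. *Itgb5* at 22.1 and *Itga6* at 7.57 CPM per kb were each separate from their neighbours, *Itgb3*, *Itga11* and *Itga7* at 1.36, 1.35 and 1.17 overlapped, and *Itga4* was lowest at 0.203. By WT D2, *Itga7* had reached 29.2 CPM per kb, which overlapped with *Itgav* above it at 35.6 and was separate from *Itga6* below it at 14.8, while *Itga3* stood at 12.8. *Itga4* remained lowest at 0.629 CPM per kb in spite of its rise. The order was the same for all 10 subunits in all 6 groups when the longest transcript was used as the length. With that length *Itga7* and *Itga6* overlapped in WT D2, at 30.5 to 31.4 and 10.5 to 36.6 CPM per kb.

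As a share of the summed CPM per kb of the 7 alpha subunits, *Itga3* made up 35.2% ± 7.29 (SD, n = 3) in WT Prol and 9.52% ± 2.79 in WT D2. *Itga7* made up 0.722% ± 0.273 and 22.5% ± 8.52, and the WT D2 libraries ran from 12.7% to 28.5%. In KO, the share of *Itga3* went from 32.1% ± 1.48 to 9.23% ± 3.29 and that of *Itga7* from 0.782% ± 0.324 to 18.5% ± 8.92. The KO D2 libraries of *Itga7* lay between 8.88% and 26.5% and overlapped with those of WT. *Itga5* made up 28.8% to 48.7% in all Prol and D0 libraries and 28.3% to 38.2% in the D2 libraries. Of the 3 beta subunits, *Itgb1* held 91.3% ± 3.09 in WT Prol and 86.3% ± 2.86 in WT D2, *Itgb5* held 8.19% ± 2.99 and 12.9% ± 2.48, and *Itgb3* reached at most 1.22% in any library. Shares within a sum are bound to each other, and they are given as a description with no test.

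**Figure D4:**
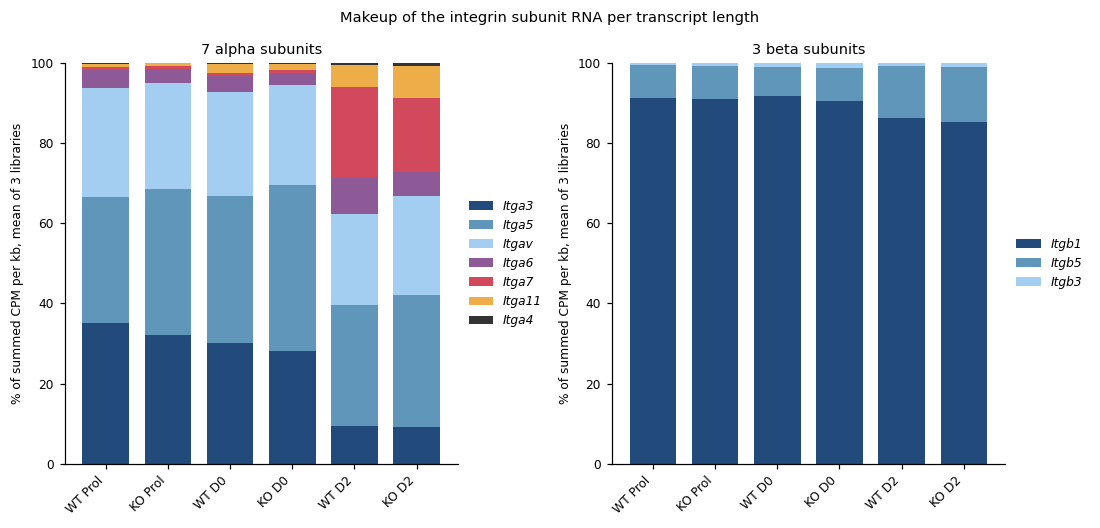
Mean share over 3 libraries of each subunit in the summed CPM per kb of the 7 alpha subunits (left) and the 3 beta subunits (right), as stacked bars by group with the percentage from 0 to 100 on the vertical axis. *Itga3* takes 35.2% in WT Prol and 9.52% in WT D2, *Itga7* takes 0.722% and 22.5%, and *Itgb1* takes between 85.2% and 91.8% of the beta subunits in every group.

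The gene most like *Itga7* over the 18 libraries was *Chrnb1*, which encodes the beta subunit of the muscle acetylcholine receptor, with a Pearson's r of 0.983 between log2 values among 9487 genes with a mean of at least 10 CPM. It was followed by *Dtx4* and *Srl*, the latter a protein of the sarcoplasmic reticulum, both at 0.979. Most like *Itga3* were *Fkbp4*, a cochaperone of heat shock proteins (0.991), *Podxl*, a sialomucin of the cell surface (0.990), and *Fen1*, a nuclease of DNA replication (0.988). *Chrnb1* went from 14.7 ± 3.82 CPM (SD, n = 3) in WT Prol to 51.5 ± 4.08 CPM in WT D2, and *Fen1* from 89.2 ± 9.04 to 23.2 ± 1.06 CPM. The 18 points fall into D2 and other libraries, and the r values describe this split. Among the subunits, *Itga7* had an r of 0.894 with *Itga4* and of -0.872 with *Itga3*.

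The remaining integrin subunits were few and scarce. Of 16 listed, 12 had a row and 11 were tested, and *Itga2*, *Itgad*, *Itgam* and *Itgax* were not analysed here. In sum the 12 reached 24.2 to 28.0 CPM in the Prol libraries and 53.7 to 92.6 CPM in the D2 libraries, beside 1200 to 3310 CPM at D2 for the 10 subunits above. From Prol to D2, 7 were called higher and 1 lower in each genotype, beside 16.6% and 14.1% of all genes in WT and 17.1% and 15.2% in KO. The median log2 fold change of the 11 was 2.08 in WT and 2.32 in KO. *Itgb6* and *Itgb8* encode further partners of αv. *Itgb6* rose by 3.65 on the log2 scale in WT (adjusted p = 1.86e-05 from limma) and by 3.24 in KO, and *Itgb8* by 1.39 (adjusted p = 0.00885) and 1.59. *Itgb6* was at 2.32, 0.534 and 0.760 CPM in WT Prol and at 16.8, 10.4 and 10.5 CPM in WT D2. *Itga8*, the nephronectin receptor, and *Itga10*, a collagen receptor of cartilage, had log2 fold changes of 3.79 and 2.41 in WT, with 4.88 and 2.38 in KO, all called.

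*Itga2b* and *Itgb2*, known from platelets and from leukocytes, also rose, by 1.74 and 3.72 in WT. *Itgb2* was at 0.0402 to 0.257 CPM in WT Prol and 0.878 to 2.47 CPM in WT D2, and *Itgb4*, the partner of α6 in epithelia, was under 1 CPM in every library. *Itgb7*, a partner of α4 on lymphocytes, was the one that fell. It was at 12.9, 10.4 and 16.6 CPM in WT Prol and at 1.18, 1.52 and 1.84 CPM in WT D2, with log2 fold changes of -3.13 in WT (adjusted p = 0.000222 from limma) and -2.98 in KO (adjusted p = 0.000344). *Itga4* rose in the same libraries.

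Of 30 listed integrin ligands, 29 were tested, and from Prol to D2 5 were called higher and 0 lower in WT, where 16.6% and 14.1% of all genes were, and 6 and 0 in KO, beside 17.1% and 15.2%. Their median log2 fold change was 0.48 in WT and 0.69 in KO, beside -0.01 and 0.02 over all genes. *Lama4*, a laminin chain, and *Col3a1*, a fibrillar collagen, had log2 fold changes of 3.94 and 3.16 in WT (adjusted p = 0.0128 and 8.09e-05 from limma), with 4.35 and 3.37 in KO. *Col3a1* was at 442.7, 529.2 and 414.6 CPM in WT Prol and at 6630, 3275 and 3210 CPM in WT D2. *Lama5*, the chain of a laminin of basement membranes, rose by 0.86 in WT and 1.26 in KO. *Npnt*, which encodes nephronectin, rose by 1.65 in WT (adjusted p = 0.0161) and had a log2 fold change of 1.23 in KO (adjusted p = 0.0622). *Vtn*, vitronectin, was the fifth in WT, named after its values were seen, with 0.520 to 3.68 CPM in WT D2 and 3 counts or fewer in every Prol library. In KO, the replicate block raised the called ligands to 15 higher and 3 lower, while the shares of all genes went to 24.6% and 23.9%.

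Of 35 listed proteins that bind integrin tails or signal from them, 34 were tested, and 6 were called higher and 2 lower in WT, and 6 and 3 in KO, against the same shares of all genes of 16.6% and 14.1% in WT and 17.1% and 15.2% in KO. Their medians were 0.07 and -0.02. *Itgb1bp2*, which encodes melusin, a muscle protein that binds the tail of β1, had a log2 fold change of 5.67 in WT (adjusted p = 9.19e-07 from limma), with 4.56 in KO. It was at 0.738, 0.652 and 0.928 CPM in WT Prol, at 36.6, 46.7 and 34.1 CPM in WT D2 and at 12.9, 31.9 and 19.2 CPM in KO D2. *Nedd9*, a docking protein of focal adhesions, rose by 3.11, *Kank1*, which binds talin, by 2.59 and *Tns1*, a tensin, by 1.26 in WT. *Parvb*, the β-parvin that binds integrin-linked kinase, fell by 1.72 and *Actn4*, a crosslinker of actin, by 1.37. In KO, 9 were called higher and 8 lower when the replicate block was used, beside the 24.6% and 23.9% of all genes. No further integrin subunit, ligand or adaptor was called between KO and WT in Prol, D0 or D2, where 0.00566%, 0.0% and 0.0% of all genes were. At an unadjusted p under 0.05 from limma, 1 of 29 ligands was lower in KO in Prol and 1 in D0. No other of these genes passed in any state, beside 1.11%, 1.47% and 1.96% of all genes.

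The spread between replicates was large for most of the 10 subunits, and it followed the replicate number. Genes with a mean of at least 10 CPM were put into 4 classes of equal size by the summed length of their exons. The median log2 ratio of replicate 1 to replicate 2 was -0.48 to -0.18 over the 6 groups in the class of the shortest, up to 2286 bases, and 0.28 to 0.83 in that of the longest, from 5371 bases. The exon lengths of the integrin subunits ran from 3391 bases for *Itgb5* to 9767 bases for *Itga4*. *Itgb5* fell in the second class, with medians of 0.02 to 0.29. *Itga3*, *Itga5*, *Itga7*, *Itga11* and *Itgb1* fell in the third, with 0.14 to 0.48, and the others in that of the longest. *Itgb1* and *Itgav* lay above the medians of their classes in all groups, at 0.83 to 1.58 and 0.91 to 1.90. *Itga5*, *Itga6*, *Itga11*, *Itgav*, *Itgb1*, *Itgb3* and *Itgb5* were higher in replicate 1 than in replicate 2 in all 6 groups, *Itgav* by 1.88 to 3.72 times and *Itga11* by 1.11 to 15.1 times. *Itga4*, the longest, did not follow this, with replicate 1 above replicate 2 in 1 of 6 groups, and *Itga7* was above in 3 of 6. In WT D2, replicate 1 was the highest of the 3 libraries for 9 of the 10 subunits, compared with 45.1% of all genes tested. In the other groups it was so for 6 (WT Prol), 8 (KO Prol), 4 (WT D0), 3 (KO D0) and 7 (KO D2) of the 10, beside 33.9% to 40.7% of all genes. Why the replicates differ was not tested. With replicate 1 left out of all groups, an alternative chosen after the data were seen, *Itga3*, *Itga4* and *Itga7* stayed called in both genotypes and *Itga11* was called in WT as well, with a log2 fold change of 2.86 (adjusted p = 0.00281 from limma).

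**Figure D5:**
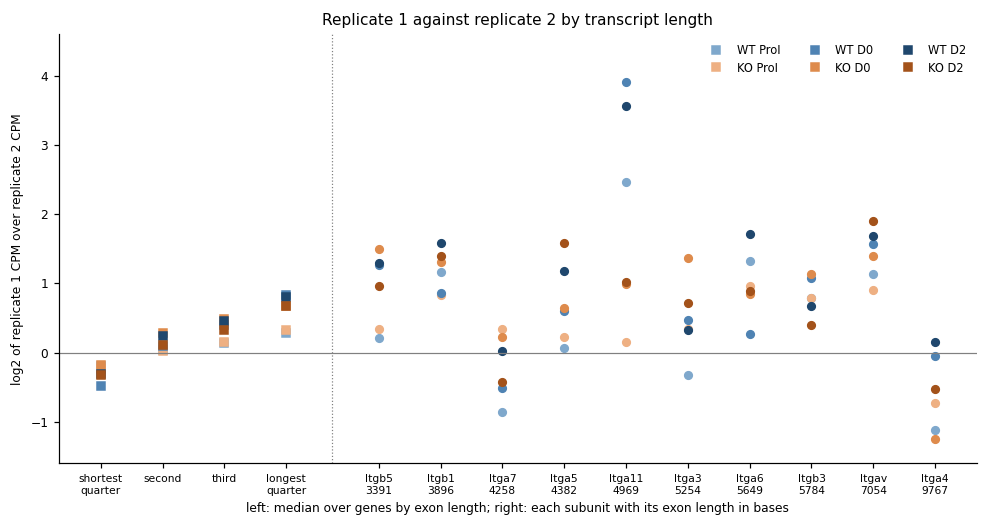
Log2 ratio of replicate 1 to replicate 2 in the 6 groups. Squares on the left are medians over all genes of a length class, and circles on the right are the 10 integrin subunits ordered by their exon length in bases. The medians rise from between -0.48 and -0.18 to between 0.28 and 0.83, and *Itga11* reaches 3.92 in WT D0 while *Itga4*, the longest, lies between -1.24 and 0.15.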

How the data were processed

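The 18 libraries are strand-specific 50 bp single-end reads of polyadenylated RNA. The authors trimmed them with cutadapt, aligned them with NextGenMap to transcripts of the mouse genome (GRCm38), summarised them as RSEM expected counts, removed genes with low counts, and computed scaling factors with edgeR. The deposited values are CPM, the expected count plus 0.5 over the scaled library total, written with decimal commas. Expected counts and library totals were recovered from them, and 36.0% to 49.2% of counts under 20 were whole to within 0.01, so no test for whole counts was used.

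The log2 values were fitted with limma 3.58.1 in R 4.3.3 (eBayes, trended variance) with 1 coefficient for each of the 6 groups and all 18 libraries. The 17672 genes tested exceeded 5 expected counts in every library of at least 1 group, and p-values were adjusted after Benjamini-Hochberg over all of them. The fit was tried on simulated counts drawn independently for each library. They held no replicate effect, so the trial does not show how the fit performs with the replicate differences seen here. Gene positions and lengths are from GENCODE M21 (GRCm38), where 19072 of 19153 genes have a symbol, and upstream sequences from RefSeq (GRCm38.p6). The lane that the study blocked on was not analysed here. Same-numbered libraries deviated together from their group means, with correlations across genes of 0.151 to 0.645 in the 7 comparisons in which all 3 pairs were over 0.1. In WT D2/Prol and WT D2/D0 1 pair was at 0.0393 and 0.010. Blocked values are therefore printed beside some results in those 7 and, for *Itga4*, in the test of the KO effect between D2 and D0. For both other comparisons they are given mainly with the alternatives.

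The members and gene lists were chosen with earlier results of these data known. Named are all 10 members, other subunits called from Prol to D2 with 1 CPM or more in a library, up to 4 ligands and 4 adaptors per direction with the largest called change in WT D2/Prol and 10 CPM or more in a library, and the 3 genes most like *Itga7* and *Itga3*. The alternatives are voom weights, library totals or median-of-ratios scaling, other filters on low values, a pseudocount of 1 CPM, the replicate block, fits of only the groups compared, each library left out, and 2 chosen after the data were seen: replicate 1 left out of all groups, and voom on all genes with a random replicate block. Figures were drawn with matplotlib 3.10.9.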

Additional observations from a re-analysis of the deposited data

How the results depend on the processing

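*Itga3*, *Itga4* and *Itga7* kept their direction and their call from Prol to D2 and from D0 to D2, in both genotypes, under every alternative. With each library left out in turn, the number of called subunits stayed at 3 to 4 of 10 in these 4 comparisons and at 0 in the others.

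With the replicate number as a block, 6 subunits were called in WT D2/Prol (adding *Itga11*, *Itgb3* and *Itgb5*), 6 in WT D2/D0 (adding *Itga6*, *Itga11* and *Itgb5*) and 5 in KO D2/D0. The shares of all genes called rose as well, to 47.7% in WT D2/Prol, 43.2% in WT D2/D0 and 46.0% in KO D2/D0. In WT D2/Prol, 14 ligands were then called higher and 1 lower and 10 adaptors higher and 7 lower, beside 24.4% and 23.3% of all genes. In both WT comparisons the numbers did not pair all libraries, although 16 of the 18 libraries correlated best with their own number. Beside *Itgb5* in KO D2/Prol, the block changed no other call. With the random block, chosen after the data were seen, 6 were called in WT D2/D0 and 5 in KO D2/D0, and with replicate 1 left out of all groups 6 in KO D2/D0, adding *Itga5*, *Itga11* and *Itgb5*. Of all 19153 genes, the random block called 3898 higher and 3318 lower in WT D2/D0, and 4182 and 3728 in KO D2/D0. Without replicate 1, 3283 of 17672 genes were called higher and 2668 lower in KO D2/D0. The random block also added *Itga11* in WT D2/Prol (adjusted p = 0.00448 from limma) and *Itgb5* in KO D2/Prol (0.0214). Leaving out replicate 1 also added *Itga11* in WT D2/D0 (0.00782). The cause was not tested.

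Library totals without scaling factors shifted the median of all genes by 0.162 in WT D2/Prol and 0.132 in KO D2/Prol and turned *Itgb1* in KO D2/Prol to 0.06. They also added calls of *Itga11* in WT D2/Prol (adjusted p = 0.0452), *Itga6* in WT D2/D0 (0.0409) and *Itgb5* in KO D2/D0 (0.0365). A fit of only the groups compared added *Itga11* in KO D2/D0 (0.0252). With a library left out, *Itgb1* went from -0.70 to 0.10 in WT D2/Prol and from -0.48 to 0.22 in KO D2/Prol, and *Itga11* in KO/WT D2 from -0.09 to 1.70. For the 10 subunits, of 39 log2 fold changes, voom weights, median-of-ratios scaling, both other filters and the pseudocount changed the call of none. The other genes were refitted only with the block. With 3 libraries a group, standard errors ran from 0.34 to 1.13. The lowest counts were 38.5 for *Itga4*, 41.1 for *Itga11* and 91.4 for *Itga7*, where counting error adds to the spread.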
